A study of Mus musculus with 18 samples.

Results

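The genes of the cytosolic ribosome are described here in mouse liver, with and without the nuclear receptor PPARA and with and without 2 of its agonists. Members were the loci with a gene identifier whose symbol is Rpl or Rps followed by a digit, together with Rplp0, Rplp1, Rplp2 and Rpsa, leaving out pseudogene symbols that hold "-ps" and the Rps6k kinases. The rule found 133 loci of 31099 with an identifier in the deposited tables, under 87 symbols. Of these, 85 were gene loci and 48 were further loci that the tables list under the symbol of a ribosomal protein gene elsewhere in the genome, called copies below. By role, 43 gene loci encode large subunit proteins, 31 small subunit proteins, 3 the stalk proteins and 7 paralogs of subunit proteins, and 1 (Rps19bp1) encodes a protein that binds RPS19 and is no part of the ribosome. The filter on low counts left 104 loci in the test, of which 81 were gene loci and 23 were copies.

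Livers came from Ppara-null mice (Ppara-/-, KO) and wild-type mice (Ppara+/+, WT), all on a mixed C57BL/6 and SV129 background and all 8 weeks old. For 48 h each genotype received chow with 0.1% Wy14,643 (Wy), chow with 0.5% fenofibrate, or the normal control diet, which gave 6 groups in the order KO Wy, KO fenofibrate, KO control, WT Wy, WT fenofibrate and WT control. Each group had 3 libraries of poly(A)-selected RNA, and each library was made from a pool of 3 to 5 livers, so the spread between libraries is that between pools. The labels do not say whether KO and WT mice were littermates. Both diets within a genotype were set against the same 3 control libraries.

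A ribosome has a small subunit, which holds the mRNA and decodes it, and a large subunit, which joins amino acids and from which a flexible stalk reaches out to recruit elongation factors. Each subunit is a body of ribosomal RNA wrapped in proteins that are made in near-equal numbers, so their genes are usually expressed together. In mammals most of these genes begin with a run of pyrimidines at the transcription start, the TOP motif, through which the kinase mTOR controls translation of the mRNA, and many have binding sites for ETS-family factors close to the start. Wy14,643 and fenofibrate activate PPARA, the liver's sensor of fatty acids. In rodents such agonists induce genes of fatty acid oxidation, multiply peroxisomes and enlarge the liver.

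The libraries held 68858479 to 150695447 counts. Between 46.0% and 71.4% of these fell on 23 major urinary protein (Mup) loci. Ppara itself had 12.3 to 20.2 CPM (counts relative to the size of the library) in the 9 KO libraries, against 50.5 to 83.5 CPM in the 9 WT libraries, with a log2 fold change of -1.96 in KO control against WT control livers; which part of the gene was deleted is not given in the sources used here. Of 10 PPARA target genes used to check the diets, all 10 rose with Wy and all 10 with fenofibrate in WT livers, with median log2 fold changes of 5.66 and 5.40. In KO livers 0 of the 10 changed with Wy and 1 with fenofibrate. Hepatocyte markers were abundant in every library, with 42267 to 63139 summed CPM over 10 genes in the 9 KO libraries, 22811 to 28111 in the 6 agonist-fed WT libraries and 55281 to 57118 in WT control libraries. CPM here are scaled by the trimmed mean of M-values (TMM), which keeps the Mup counts from setting the level of other genes.

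Ribosomal protein genes differed widely in level per length within each group. Levels were compared between genes as CPM per kilobase (RPKM) over the shortest principal GENCODE transcript. Over the 76 tested subunit and stalk genes the median level was 125 RPKM in KO Wy livers, 135 RPKM in KO fenofibrate livers and 141 RPKM in KO control livers. In WT livers the median was 149 RPKM with Wy, 140 RPKM with fenofibrate and 125 RPKM on control diet. In WT control livers the highest level was that of Rpl10 (chrX:74270812-74273135, mm10), which joins the large subunit late in its assembly, at 315 RPKM (range 287 to 347, n = 3). Rpl41, the shortest ribosomal protein, followed at 280 RPKM and the stalk gene Rplp1 at 279 RPKM. Rps18 and Rps2, both of the small subunit, had 224 and 198 RPKM. In WT Wy livers the order at the top was different, with Rplp1 at 404 RPKM, Rpl41 at 318 RPKM and Rpl10 at 296 RPKM.

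At the low end, Rpl35 had 12.7 RPKM in WT control livers, with a range of 11.5 to 14.8. The Rpl35 locus overlaps Arpc5l and Wdr38, so its counts may lack or include reads of these. Rps20 had 18.4 RPKM in WT control livers, but its annotated transcript is 3706 bases long, so its level per length rests on that annotation. The paralog Rpl7l1 had 14.7 RPKM, against 103 RPKM for Rpl7, and Rps19bp1 had 3.88 RPKM. Of the gene loci that missed the filter, Rpl12 and Rpl10l had 0 counts in all 18 libraries. A count of 0 allows up to 3 counts, or 0.0354 CPM in the library where that is most. Rpl12 (chr2:32961559-32965345) shares its interval with Lrsam1 and Garnl3 in the tables, and its copy Gm10275 (chr10:29698746-29699380) held 237 to 559 counts per library, so the 0 is not read as a level of the gene. Rpl3l had 8 counts over the 9 KO libraries and 23 over the 9 WT libraries, with at most 5 in any library. Rpl39l, a paralog known from testis, had 5 counts over the KO libraries and 8 over the WT libraries, with at most 3 in any.

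Summed over the 81 tested gene loci, the level was on average highest in WT livers fed Wy. The 3 WT Wy libraries had 8717, 8620 and 8888 CPM and the 3 WT fenofibrate libraries 9317, 7406 and 8200 CPM, against 7942, 6424 and 6954 CPM in the WT control libraries. All WT Wy libraries lay above all WT control libraries, while the fenofibrate and control ranges overlapped. The KO Wy libraries had 6937, 6478 and 7916 CPM and the KO fenofibrate libraries 7676, 8869 and 6772 CPM, against 8106, 8545 and 7678 CPM in the KO control libraries. In KO livers the ranges of both diets overlapped that of the control diet.

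As a share of all counts with no scaling, the 133 loci took 0.544 ± 0.034% of the counts in KO Wy livers, 0.788 ± 0.149% in KO fenofibrate livers and 0.799 ± 0.045% in KO control livers (SD, n = 3 each). In WT livers they took 1.21 ± 0.075% with Wy, 1.14 ± 0.099% with fenofibrate and 0.557 ± 0.050% on control diet. These shares also carry the Mup loci, whose own share varied between libraries. With Mup counts left out the ribosomal protein share was 1.67%, 1.98% and 1.94% in the KO groups in the same order, and 2.39%, 2.33% and 1.70% in the WT groups.

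**Figure D1:**
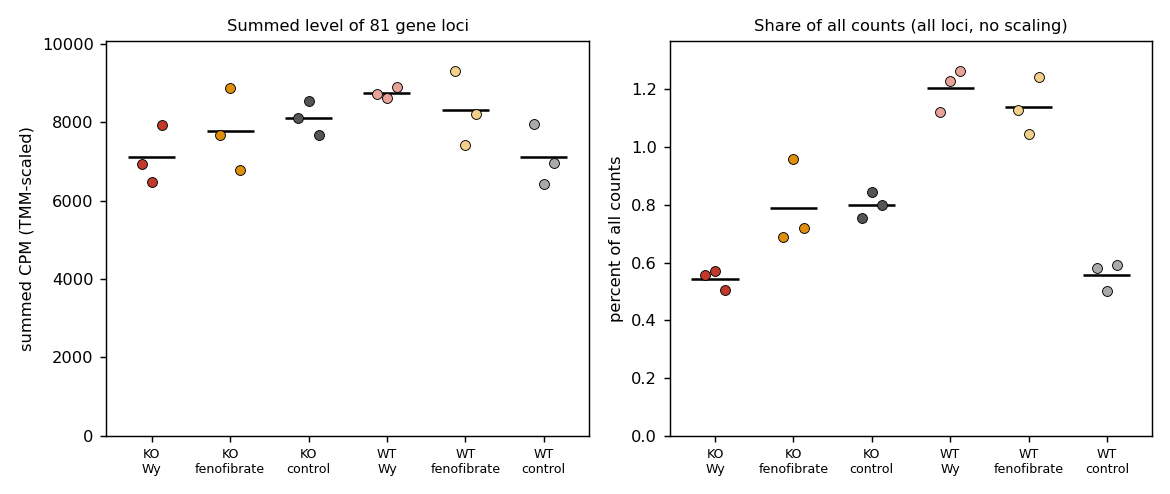
Left, summed TMM-scaled CPM of 81 ribosomal protein gene loci; right, the share of all counts on all 133 loci in percent, with no scaling. Each point is 1 library, horizontal lines are means of 3 libraries, and both axes start at 0; in the left panel the 3 WT Wy libraries (8620 to 8888 CPM) lie above the 3 WT control libraries (6424 to 7942 CPM), and in the KO groups the ranges overlap.

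Within a group, the ribosomal protein genes moved up and down together from library to library. For the 76 subunit and stalk genes, each library's deviation from its group mean was taken on the log2(CPM + 0.5) scale. The median correlation between genes over the 18 libraries was 0.905 across 2850 gene pairs, with the 10th and 90th percentiles at 0.753 and 0.960, and the common movement (the library's median deviation) carried 85.8% of the variance within groups. These correlations describe genes that share libraries, pools and scaling. Of the 76 genes, 67 followed the median of the others with r above 0.9. Rpl29 followed it least, at 0.477, then the stalk gene Rplp0 at 0.752 and Rpl14 at 0.760.

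The shared movement sets the precision of every comparison below. WT control library 1 stood 0.171 log2 above its group mean, with 76 of 76 genes above, and WT control library 2 stood at -0.141, with 0 of 76 above. WT fenofibrate libraries 1 and 2 stood at 0.173 and -0.158, KO Wy libraries 3 and 2 at 0.157 and -0.134, and KO fenofibrate libraries 2 and 3 at 0.207 and -0.187. The WT Wy libraries stood between -0.022 and 0.027. The SD of this common movement between libraries of a group was 0.142 log2, so a difference between 2 groups of 3 that all genes share has a standard error of 0.116 log2. The differences between genotypes in the response combine more groups, so their shared standard error is larger. Because of the common movement, calls on single members are not independent of each other, and counts of called members shift together when a library is left out.

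**Figure D2:**
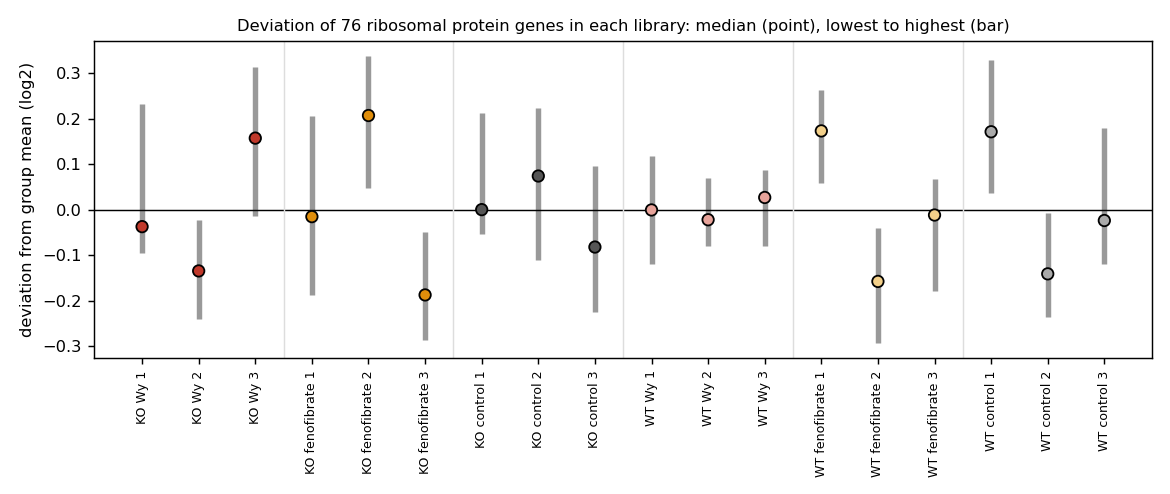
Deviation of 76 ribosomal protein genes from their group mean in each of the 18 libraries, on the log2(CPM + 0.5) scale. Points are the median over genes and bars run from the lowest to the highest gene; KO fenofibrate libraries 2 (0.207) and 3 (-0.187) lie farthest from 0, and the 3 WT Wy libraries lie between -0.022 and 0.027.

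With Wy, a large share of ribosomal protein mRNAs rose in WT livers. Across the 104 tested members 48 were called higher and 0 lower by edgeR's quasi-likelihood test at a Benjamini-Hochberg adjusted p under 0.05, or 46.2% of them, where 20.2% of all 14241 loci tested were called higher and 19.02% lower. At an unadjusted p under 0.05, 64 members were higher and 0 lower, where 3428 of all 14241 loci were higher and 3333 lower. DESeq2 called 55 members higher and 0 lower. Here and below, DESeq2 calls are given for members only, without the share over all loci. The members' median log2 fold change was 0.32, against -0.02 over all loci tested, and single members ran from -0.13 to 0.81. In 76 of the 104 members all 3 Wy libraries lay above all 3 control libraries, which was so for 27.98% of all loci tested. By role, 21 of 42 large subunit genes, 13 of 31 small subunit genes, 2 of 3 stalk genes, 1 of 4 paralogs and 11 of 23 copies were called higher, with medians of 0.31, 0.28, 0.53, 0.12 and 0.41. These are bulk tissue RNA, in which more cells of a type and more RNA per cell cannot be told apart.

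The gene with the largest change was Rps26 (chr10:128624529-128626506, mm10), whose protein lines the exit of the mRNA channel on the small subunit and whose human gene is mutated in Diamond-Blackfan anaemia. It had 101, 99.3 and 99.4 CPM in WT Wy livers, against 59.7, 51.7 and 58.8 CPM in WT control livers. The groups were far apart, with a log2 fold change of 0.81 ± 0.12 (SE; edgeR adjusted p = 1.9e-05). Rps19, the small subunit gene most often mutated in the same human disease, had 109, 103 and 110 CPM in WT Wy livers, against 76.6, 59.8 and 67.5 CPM in WT control livers, a log2 fold change of 0.66 ± 0.13 (edgeR adjusted p = 4.0e-04). Rps12 rose by 0.61 ± 0.12 (edgeR adjusted p = 4.6e-04). Rpsa, the small subunit protein also known as the laminin receptor, rose by 0.44 ± 0.11 (edgeR adjusted p = 0.0038). Other small subunit genes did not pass: Rps6, the classical substrate of S6 kinase, had a log2 fold change of 0.05, and Rps27a, which is made as a fusion with ubiquitin, had 0.26.

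Among the stalk genes, Rplp2 (chr7:141447370-141451585) had 122, 120 and 123 CPM in WT Wy livers, against 83.3, 62.5 and 66.3 CPM in WT control livers. Every Wy library lay above every control library, with a log2 fold change of 0.78 ± 0.12 (edgeR adjusted p = 4.7e-05). Its partner Rplp1 had 200, 201 and 203 CPM with Wy, against 153, 130 and 135 CPM on control diet, a log2 fold change of 0.53 ± 0.11 (edgeR adjusted p = 6.2e-04). Rplp0, the base that anchors these 2 proteins to the large subunit, had 112, 114 and 116 CPM with Wy, against 118, 92.3 and 92.2 CPM on control diet. The ranges overlapped, and its log2 fold change of 0.18 was not called.

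In the large subunit, Rpl3 (chr15:80077781-80083406), which reaches toward the centre where peptide bonds form, had 153, 147 and 157 CPM in WT Wy livers, against 121, 101 and 103 CPM in WT control livers, a log2 fold change of 0.49 ± 0.10 (edgeR adjusted p = 5.1e-04). Rpl23a, which sits at the exit of the peptide tunnel, rose by 0.62 ± 0.11 (edgeR adjusted p = 1.2e-04), but its locus overlaps Tlcd1 on the opposite strand and whether counting used strand is not given in the sources used here. Rpl4, at 262, 268 and 274 CPM with Wy against 223, 196 and 211 CPM on control diet, rose by 0.35 ± 0.08. Rpl11 rose by 0.35 ± 0.12 (edgeR adjusted p = 0.024), while Rpl5, which binds 5S ribosomal RNA together with Rpl11, had 0.21 ± 0.12 (edgeR adjusted p = 0.17). The call of Rpl11 was lost without WT Wy library 3 or without WT control library 2 or 3. Rpl10, the most abundant per length, had 233, 240 and 237 CPM with Wy, against 277, 229 and 248 CPM on control diet. Its ranges overlapped, with a log2 fold change of -0.09 ± 0.10 whose 95% interval ran from -0.30 to 0.12; scaled by library totals the value was 0.72.

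Scaling and single control libraries bear on these counts. Scaled by library totals with no TMM, the median log2 fold change of all loci was 0.79 with Wy and 0.82 with fenofibrate in WT livers and all 104 members were called higher in both. The share of all loci called with that scaling is not given here. With library totals the members' median minus that of all loci was 0.34 with Wy and 0.23 with fenofibrate, and with TMM it was 0.33 and 0.23. Without WT control library 2 the count of members called higher with Wy was 24, and without WT control library 3 it was 30. Of the 48 called, 22 were called in each of the 18 fits that left out 1 library, and Rps26, Rplp2 and Rpl3 were among them.

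Markers of liver cell types moved with the diets in WT livers as well. With Wy, 8 of 10 hepatocyte markers and 9 of 10 tested Kupffer cell markers fell and 0 rose. Of all loci tested, 19.02% fell and 20.2% rose with Wy. Summed Kupffer cell markers had 84.0 to 142 CPM in the KO diet groups and 91.0 to 103 CPM in KO control livers, and 44.7 to 56.7 CPM in the WT diet groups against 77.1 to 85.1 CPM in WT control livers. Of the other lists, 1 of 6 infiltrating myeloid, 1 of 6 lymphocyte, 3 of 7 stellate cell, 2 of 9 endothelial and 1 of 1 pancreatic markers fell with Wy, and 1 of 9 endothelial and 1 of 5 cholangiocyte markers rose. Lymphocyte markers summed to at most 2.66 CPM in any library, with Ms4a1 at 0. Of 4 tested erythroid markers 0 were called by edgeR, with 287 to 364 summed CPM in WT Wy livers against 177 to 235 CPM in WT control livers, and Alas2 at 0. The stellate marker Lrat and the pancreatic genes Amy2a5, Pnlip and Prss2 were at 0. The part of these shifts in the ribosomal protein results was not tested.

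With fenofibrate some ribosomal protein mRNAs rose in WT livers and most did not pass the test. Of 104 members 28 were called higher and 0 lower, or 26.9% of them, where 19.3% of all loci tested were called higher and 17.6% lower. At an unadjusted p under 0.05, 47 members were higher and 1 lower, where 3377 of all 14241 loci were higher and 3056 lower. DESeq2 called 26 members higher and 0 lower. The members' median was 0.24, against 0.01 over all loci. The 28 held 12 of 42 large subunit genes, 7 of 31 small subunit genes, 2 of 3 stalk genes, 0 of 4 paralogs and 7 of 23 copies. All 3 fenofibrate libraries lay above all 3 control libraries in 29 of the members, where this was so for 25.1% of all loci. The count rested on single libraries: it was 11 without WT control library 2, 14 without WT control library 3, 13 without WT fenofibrate library 1, 15 without WT fenofibrate library 3 and 50 without WT fenofibrate library 2. In all 18 such fits 11 members were called.

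Rplp2 led this comparison, with 122, 94.9 and 113 CPM in WT fenofibrate livers, against 83.3, 62.5 and 66.3 CPM in WT control livers, a log2 fold change of 0.64 ± 0.12 (edgeR adjusted p = 3.9e-04). Rps26 had 97.8, 76.3 and 87.2 CPM with fenofibrate, against 59.7, 51.7 and 58.8 CPM on control diet, a log2 fold change of 0.62 ± 0.12 (edgeR adjusted p = 3.5e-04). Both genes had separate ranges. Rps12 rose by 0.58, Rpl3 by 0.47, Rpl13 by 0.46, Rpl14 by 0.45 and Rpl4 by 0.33. Rplp1 rose by 0.34 ± 0.11 (edgeR adjusted p = 0.019) and Rpl11 by 0.34. The calls of Rplp1 and Rpl11 were lost without WT control library 2 or 3 or without WT fenofibrate library 1 or 3. Rplp0 had a log2 fold change of 0.14, Rpl10 of -0.12 and Rps6 of -0.02, and these were not called. Scaled by library totals, Rpl10 and Rps6 had 0.68 and 0.79.

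**Figure D3:**
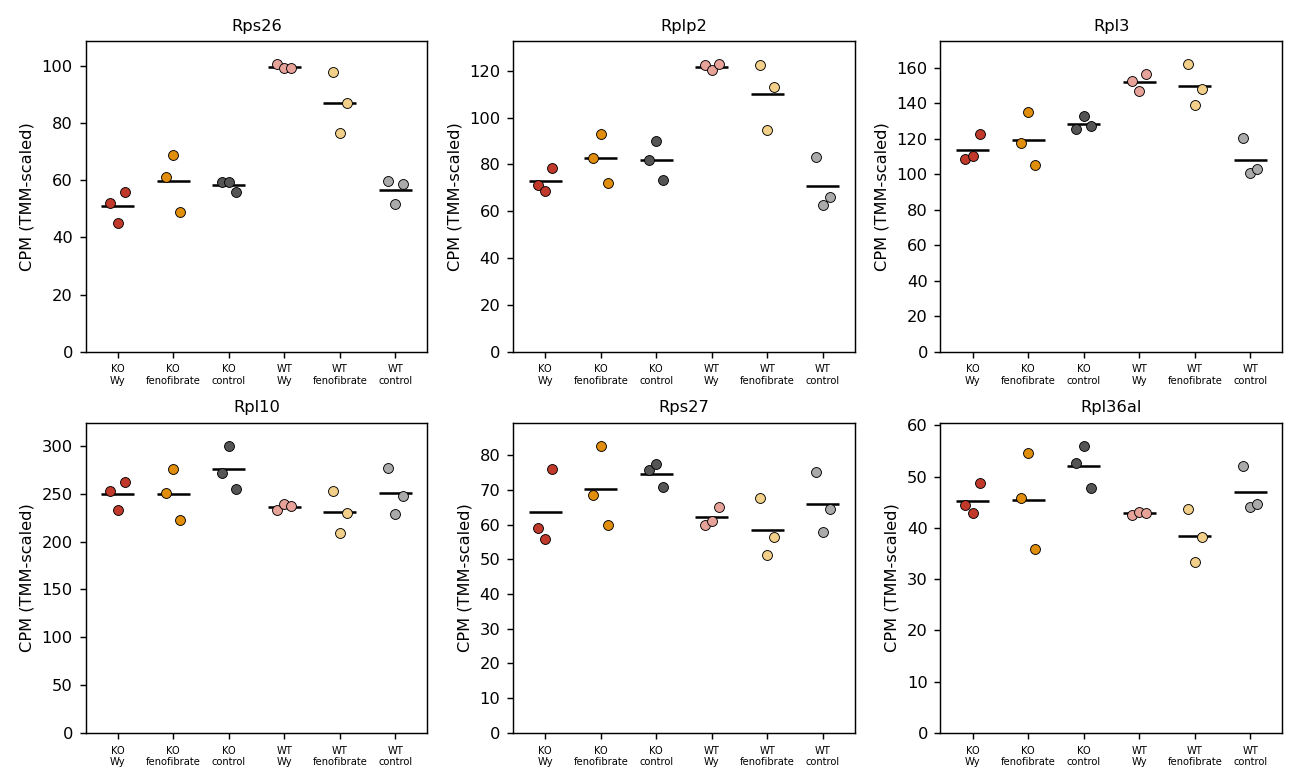
TMM-scaled CPM of 6 ribosomal protein genes in each library, with means of 3 libraries as lines and axes from 0. Rps26, Rplp2 and Rpl3 were higher in the WT Wy and WT fenofibrate libraries than in the WT control libraries (Rps26 76.3 to 101 CPM against 51.7 to 59.7 CPM), Rpl10 and Rps27 overlapped between diets within each genotype, and Rpl36al in WT Wy and WT fenofibrate livers lay below WT control livers.

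In livers without PPARA no ribosomal protein gene was called higher with either diet. With Wy 0 of 104 members were called in either direction by edgeR, where 0.133% of all loci tested were called higher and 0.105% lower. At an unadjusted p under 0.05, 21 members were lower and 0 higher, where 909 of all 14241 loci were lower and 1089 higher. DESeq2 called 1 member lower, which was Rpl29. Fold changes were negative for 102 of 104 members with a median of -0.20, against 0.02 over all loci, and the 3 KO Wy libraries all lay below the 3 KO control libraries in 26 members, where this was so for 10.2% of all loci. Rpl29 had the lowest adjusted p, with 35.2, 25.6 and 29.6 CPM in KO Wy livers, against 44.2, 39.9 and 39.7 CPM in KO control livers, a log2 fold change of -0.45 ± 0.10 (edgeR adjusted p = 0.058). Its reads can also fit its copy Gm13841, described below. Added together, gene and copy had 51.4, 48.2 and 51.5 CPM in KO Wy livers, against 60.0, 62.2 and 57.4 CPM in KO control livers. Rps3a1 had 65.3, 58.0 and 85.4 CPM with Wy, against 113, 98.3 and 83.4 CPM on control diet, with -0.50 ± 0.15 (edgeR adjusted p = 0.15). Rps26, the gene with the largest change in WT livers, had 52.0, 45.1 and 55.8 CPM in KO Wy livers, against 59.3, 59.5 and 55.7 CPM in KO control livers.

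With fenofibrate in KO livers 0 of 104 members were called by edgeR, where 0.997% of all loci were called higher and 0.548% lower. At an unadjusted p under 0.05, 2 members were lower and 0 higher, where 943 of all 14241 loci were lower and 1222 higher. DESeq2 called 0 members. The median was -0.07, against 0.01 over all loci, and it was 0.04 without KO fenofibrate library 3. Rps26 had 61.0, 68.9 and 48.9 CPM in KO fenofibrate livers, against 59.3, 59.5 and 55.7 CPM in KO control livers. Rplp2 had 82.6, 93.1 and 72.0 CPM with fenofibrate, against 81.8, 89.9 and 73.2 CPM on control diet. Both genes overlapped between the groups.

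The difference between genotypes in the response was tested directly, as the change with a diet in KO livers minus that in WT livers. For Wy, 55 of 104 members (52.9%) had a lower response in KO livers and 0 a higher one. Of all loci tested, 14.1% were called lower and 14.00% higher. At an unadjusted p under 0.05, 81 members were lower and 0 higher, where 2729 of all 14241 loci were lower and 2832 higher. DESeq2 called 67 members lower and 0 higher. The median difference was -0.51, against 0.05 over all loci, and 104 of 104 members were negative. The 55 held 26 of 42 large subunit genes, 15 of 31 small subunit genes, 2 of 3 stalk genes, 1 of 4 paralogs and 11 of 23 copies. For Rps26 the difference was -1.00 ± 0.16 (edgeR adjusted p = 1.6e-04), with a 95% interval from -1.35 to -0.66. For Rplp2 it was -0.95 ± 0.17 (edgeR adjusted p = 4.2e-04) and for Rpl3 -0.67 ± 0.14 (edgeR adjusted p = 0.0013). Of the 55, 34 were called in all 18 fits that left out 1 library.

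For fenofibrate the genotype difference was called for 11 of 104 members, all lower, or 10.6%, where 11.6% of all loci were called lower and 10.7% higher. The share of members called at the adjusted threshold was thus close to that of all loci. At an unadjusted p under 0.05, 37 members were lower and 0 higher, where 2386 of all 14241 loci were lower and 2469 higher. DESeq2 called 16 members lower and 0 higher. The median difference was -0.32, against 0.03 over all loci. The 11 were 9 gene loci and 2 copies, and 4 of them (Rpl3, its X-linked copy, Rplp2 and Rps26) were called in all 18 fits that left out 1 library. The count was 4 without WT control library 2, 6 without WT fenofibrate library 1 or 3, 7 without KO control library 1, KO fenofibrate library 3 or WT control library 3, 22 without WT control library 1 or WT fenofibrate library 2, and 42 without KO fenofibrate library 2. Rpl3 had a difference of -0.58 ± 0.14 (edgeR adjusted p = 0.0049) and Rplp2 of -0.62 ± 0.17 (edgeR adjusted p = 0.013).

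**Figure D4:**
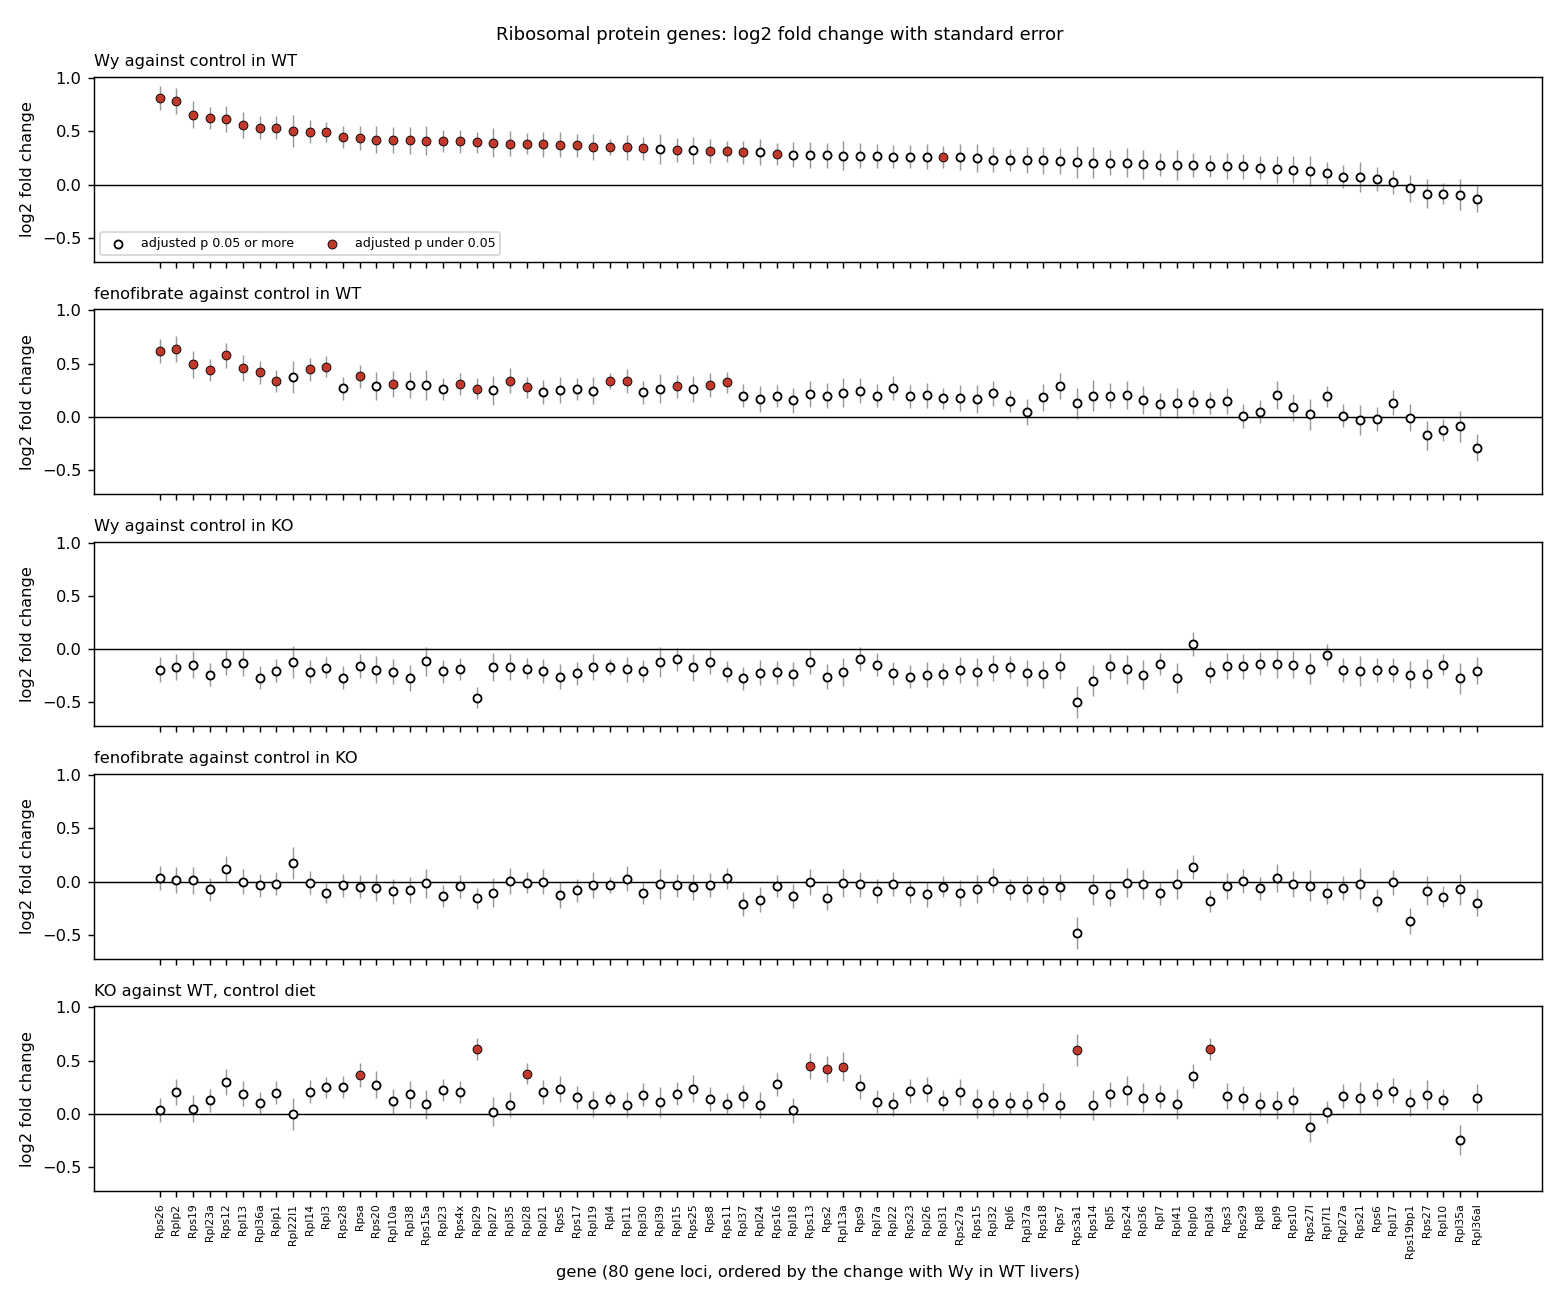
Log2 fold changes with standard errors of 80 of the 81 tested ribosomal protein gene loci in 5 comparisons, from the first group named over the second, in the order of the change with Wy in WT livers. Filled points have an edgeR adjusted p under 0.05; 36 of those shown are filled with Wy in WT livers, 21 with fenofibrate in WT livers, 0 with either diet in KO livers and 8 in KO against WT on control diet, and Rpl29, Rpl34 and Rps3a1 stand out in the last.

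The doses of the 2 agonists differed (0.1% Wy and 0.5% fenofibrate in the diet), so their responses are given side by side. In WT livers Rps26 changed by 0.81 with Wy and 0.62 with fenofibrate, Rplp2 by 0.78 and 0.64, and Rpl3 by 0.49 and 0.47. Directly between the diets, edgeR called 0 of 104 members in WT livers, where 0.323% of all loci were called higher and 0.576% lower with Wy. There 0 members had an unadjusted p under 0.05, where 780 of all 14241 loci were higher and 973 lower. DESeq2 called 0 members, and their median was 0.08. In KO livers edgeR called 0 of 104, where 1.30% of all loci were higher and 1.59% lower with Wy. There 4 members were lower at an unadjusted p under 0.05, where 1193 of all 14241 loci were lower and 1119 higher. DESeq2 called 0 members, and their median was -0.13. In KO livers the 95% interval of the Wy over fenofibrate difference ran from -0.47 to 0.02 for Rps26 and from -0.21 to 0.21 for Rpl10.

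On control diet, a small number of ribosomal protein mRNAs were higher in KO than in WT livers. Of 104 members 11 were called higher and 0 lower, or 10.6%, where 4.28% of all loci tested were called higher and 5.66% lower. At an unadjusted p under 0.05, 24 members were higher and 1 lower, where 1411 of all 14241 loci were higher and 1619 lower. DESeq2 called 12 members higher and 0 lower. The median was 0.18, against 0.00 over all loci and beside the standard error of 0.116 given above for a shared difference, and all 3 KO libraries lay above all 3 WT libraries in 29 members, where this was so for 14.4% of all loci. The 8 gene loci called were Rpl29, Rpl34, Rps3a1, Rpl28, Rps13, Rps2, Rpsa and Rpl13a, at log2 fold changes of 0.37 to 0.61, and the 3 copies included those of Rpl28 (Gm10051) and Rps24 (Rps24-ps3). Only Rpl29 and Rpl34 were called in all 18 fits that left out 1 library. The count was 2 without KO control library 1 or WT control library 2, 3 without KO control library 2 or WT control library 3, and 7 without KO control library 3.

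Rpl34 (chr3:130726831-130730398), a large subunit gene, had 58.5, 59.4 and 51.0 CPM in KO control livers, against 41.4, 34.1 and 35.05 CPM in WT control livers, a log2 fold change of 0.61 ± 0.10 (edgeR adjusted p = 5.1e-04). It had 49.6, 51.2 and 47.8 CPM in KO fenofibrate livers, against 45.5, 37.2 and 37.9 CPM in WT fenofibrate livers, and 48.3, 43.3 and 54.2 CPM in KO Wy livers, against 41.3, 40.3 and 43.5 CPM in WT Wy livers. The genotypes were separate on control and fenofibrate diets and overlapped slightly with Wy. Rps3a1 (chr3:86137940-86142702), a small subunit gene on the same chromosome, had 113, 98.3 and 83.4 CPM in KO control livers, against 72.2, 59.1 and 62.7 CPM in WT control livers, with 0.60 ± 0.15 (edgeR adjusted p = 0.013). Rplp0, the stalk base, had 130, 119 and 138 CPM in KO control livers, against 118, 92.3 and 92.2 CPM in WT control livers. Its ranges were separate, but its log2 fold change of 0.36 ± 0.11 was not called (edgeR adjusted p = 0.056).

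Rpl29 (chr9:106429432-106431573), a large subunit gene, had 44.2, 39.9 and 39.7 CPM in KO control livers, against 28.1, 26.9 and 26.2 CPM in WT control livers, a log2 fold change of 0.61 ± 0.10 (edgeR adjusted p = 3.8e-04). Its processed copy Gm13841 (chr5:115801565-115802206, minus strand) went the other way, with a log2 fold change of -0.42 ± 0.15 (edgeR adjusted p = 0.081). The gene and its copy differ in 3 of 483 coding bases, so a read can fit both. The first 90 coding bases of each show how close they are, with the base that differs in capitals (sequences from GENCODE M21 transcripts and annotated on mm10).
Rpl29: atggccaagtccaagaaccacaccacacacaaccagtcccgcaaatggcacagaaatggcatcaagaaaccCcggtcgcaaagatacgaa
Gm13841: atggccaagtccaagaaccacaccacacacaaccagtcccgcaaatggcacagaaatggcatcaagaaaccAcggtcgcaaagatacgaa

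Counts on Gm13841 were 35.7%, 55.8% and 44.7% of those on Rpl29 in KO control livers, against 94.0%, 86.5% and 96.1% in WT control livers. They were 46.0%, 88.1% and 74.1% in KO Wy livers, against 89.7%, 93.2% and 95.5% in WT Wy livers, and 57.2%, 50.9% and 42.9% in KO fenofibrate livers, against 92.5%, 85.5% and 92.0% in WT fenofibrate livers. All WT libraries thus lay at 85.5% to 96.1%, and 8 of the 9 KO libraries lay below that range. The means were 45.4 ± 10.1% and 92.2 ± 5.05% on control diet (KO and WT, SD, n = 3 each; exact permutation test, two-sided, p = 0.1, the smallest that 3 against 3 allows). This pair was singled out after its values were seen. Added together, the gene and copy had 60.0, 62.2 and 57.4 CPM in KO control livers, against 54.4, 50.2 and 51.4 CPM in WT control livers, and the 3 KO sums all lay above the 3 WT sums. Adding copies to their genes left 6 members called higher in KO.

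The shares of other copies varied less. For the 21 counted copies whose gene was counted too, the copy held between 0.237% and 73.4% of the gene's counts on average, with a median of 4.41%, and 10 were above 5%. Coding sequences of 22 copies were 96.9% to 100% identical to the gene, with a median of 99.8%. For the 20 pairs other than Rpl29, the highest share over the 18 libraries was at most 2.10 times the lowest. The X-linked Rpl3-ps1 (chrX:13202546-13203838), which differs from Rpl3 at 2 of 1209 aligned bases, held 21.2% to 23.7% of the counts of Rpl3 in every library, and its change with Wy in WT livers was 0.51, against 0.49 for Rpl3. Reads of such a copy and its gene cannot be told apart here. Rps24-ps3, singled out after its values were seen, held 2.173%, 2.20% and 2.29% of the counts of Rps24 in WT Wy livers, against 1.72%, 1.78% and 1.69% in WT control livers, and it was called higher with Wy in WT livers while Rps24 was not. The first 90 coding bases are shown with the differing base in capitals, from the same transcripts.
Rpl3: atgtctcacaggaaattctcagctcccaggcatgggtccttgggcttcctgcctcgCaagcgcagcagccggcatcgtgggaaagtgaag
Rpl3-ps1: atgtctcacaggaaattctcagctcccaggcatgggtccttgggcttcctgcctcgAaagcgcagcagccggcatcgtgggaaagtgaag

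**Figure D5:**
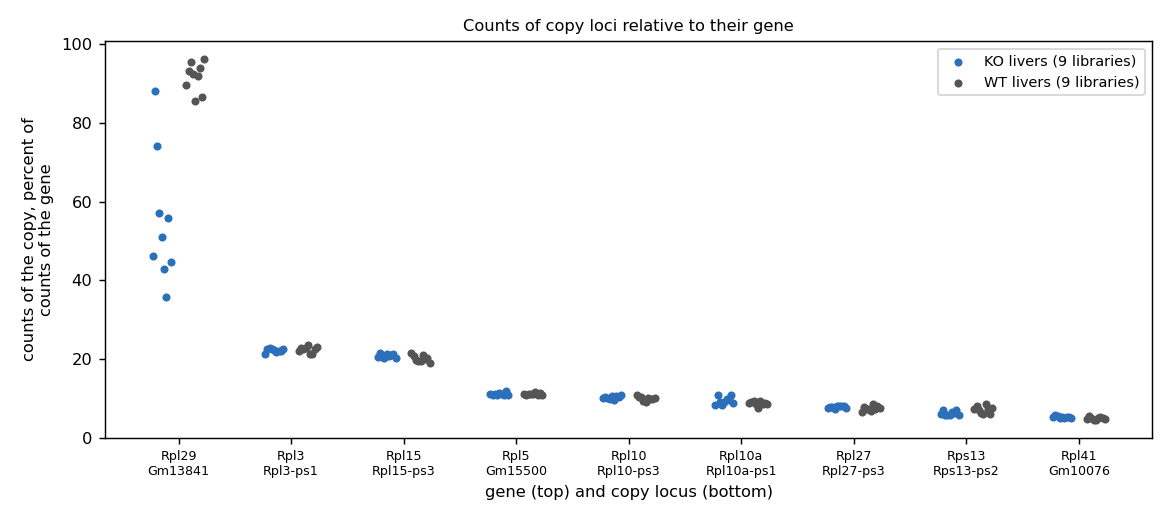
Counts of 9 copy loci in percent of the counts of their gene, from the 10 copies above 5% on average, with 9 KO libraries left and 9 WT libraries right for each. Each point is 1 library and the axis starts at 0; Gm13841 lies at 35.7% to 88.1% of Rpl29 in KO livers and 85.5% to 96.1% in WT livers, and the other copies, such as Rpl3-ps1 at 21.2% to 23.7%, have similar shares in both.

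Of the 25 copies at 0 counts in all 18 libraries, all 25 overlap another locus of the tables, while 3 of the 23 counted copies do. Among the 81 tested gene loci, 17 overlap another locus, among them Rpl18, Rpl22, Rpl23a, Rpl28, Rpl35, Rpl5, Rps2 and Rps6. Their counts may lack or include reads of the partner.

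Of the 4 tested paralogs, 1 (Rpl22l1) was called higher with Wy in WT livers, near the 20.2% of all loci tested. Rpl36al (chr12:69182731-69184083), an intronless relative of Rpl36a, had 42.6, 43.1 and 43.0 CPM in WT Wy livers, against 52.1, 44.2 and 44.7 CPM in WT control livers. All Wy libraries lay below all control libraries, but its log2 fold change of -0.13 was not called (edgeR adjusted p = 0.44), and scaled by library totals it was 0.68. Rpl36a itself had 63.4, 66.5 and 64.8 CPM with Wy, against 49.3, 40.4 and 44.6 CPM on control diet, with 0.54 ± 0.11 (edgeR adjusted p = 6.9e-04). With fenofibrate the log2 fold changes were -0.29 for Rpl36al and 0.42 for Rpl36a; Rpl36al was called lower without KO fenofibrate library 3 or WT fenofibrate library 1. In KO livers with Wy both were lower by a similar amount, at -0.20 and -0.27, and neither was called.

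Rpl22l1, which can take the place of Rpl22 in the large subunit, had 29.7, 26.3 and 25.04 CPM in WT Wy livers, against 22.6, 17.3 and 17.3 CPM in WT control livers, a log2 fold change of 0.50 ± 0.15 (edgeR adjusted p = 0.013). That call was lost without WT control library 2 or 3. Rpl22 had 38.8, 36.9 and 40.8 CPM with Wy, against 36.0, 29.2 and 31.95 CPM on control diet, with 0.26 ± 0.11 (edgeR adjusted p = 0.069). Rps27 had 59.9, 61.0 and 65.1 CPM in WT Wy livers, against 75.2, 57.8 and 64.6 CPM in WT control livers, and its p53-responsive paralog Rps27l had 57.6, 54.4 and 56.2 CPM, against 59.3, 46.2 and 48.6 CPM. Neither was called, with -0.09 and 0.13. Rpl7l1, which acts in ribosome assembly, had 0.11, and Rpl39 had 0.34 (edgeR adjusted p = 0.065). Differences between a gene and its paralog in the size of the change were not tested.

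Among genes with a promoter window, larger shares of these genes than of tested genes held the ETS motif and a pyrimidine run. The shares with SP1 and the E-box were not larger. RefSeq promoter windows of 300 bases (GRCm38.p6, from 250 before to 50 after the start) matched 57 of the 77 subunit and stalk genes, in 67 windows. The ETS motif CCGGAA was in 56.1% of these genes on either strand, against 16.7% of 27025 genes with a window (all genes) and 29.7% of the 10733 among them that were tested (tested genes). A pyrimidine run (a C and at least 4 more C or T within 10 bases of the start, plus strand) was in 52.6%, against 28.8% of all genes and 31.6% of tested genes. The YY1 motif AAGATGGC was in 8.77%, against 3.19% of all genes and 5.00% of tested genes. The SP1 motif GGGCGG was in 61.4%, against 38.2% of all genes and 65.4% of tested genes. TATAAA was in 10.5%, against 15.7% of all genes and 9.68% of tested genes, and the E-box CACGTG was in 10.5%, against 8.09% of all genes and 11.5% of tested genes. The strict direct repeat bound by PPARs was in 0 of 57 genes, against 0.0481% of all genes and 0.0652% of tested genes. Among genes called higher with Wy in WT livers 13 of 26 had a pyrimidine run and 14 of 26 the ETS motif, against 17 of 31 and 18 of 31 of those not called. The SP1 motif was in 19 of 26 genes called higher and 16 of 31 not called, the E-box in 4 of 26 and 2 of 31, YY1 in 1 of 26 and 4 of 31, and TATAAA in 2 of 26 and 4 of 31. Differences between called and not called genes were not tested. These are matches of letters and describe no binding.

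The 30 bases around the RefSeq start, 15 on each side, are shown for 3 genes that rose with both agonists and hold a run (Rps26, Rplp2, Rpl14), 1 that rose and holds none by the rule above (Rps12), and 2 that were not called (Rps27 with a run, Rpl10 without). Capitals mark the pyrimidine run. The windows lie at chr10:128626492-128626521 (minus), chr7:141447636-141447665 (plus), chr9:120571502-120571531 (plus), chr10:23787195-23787224 (minus), chr3:90213634-90213663 (minus) and chrX:74270801-74270830 (plus), in the order of the lines.
Rps26: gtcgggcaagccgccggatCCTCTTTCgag
Rplp2: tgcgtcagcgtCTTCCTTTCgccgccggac
Rpl14: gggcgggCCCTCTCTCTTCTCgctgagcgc
Rps12: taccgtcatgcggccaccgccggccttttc
Rps27: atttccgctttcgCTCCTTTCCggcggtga
Rpl10: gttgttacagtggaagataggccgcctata

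Cytosolic ribosomal proteins with other names were counted apart. Of 4 tested loci 2 rose with Wy in WT livers: Gnb2l1 (the RACK1 protein of the small subunit) by 0.34 and Fau (whose product includes RPS30) by 0.34. Of 13 loci of translation elongation and other genes known to carry a TOP motif, 5 rose and 1 fell with Wy in WT livers and 4 rose and 1 fell with fenofibrate. Of all loci tested in WT livers, 20.2% rose and 19.02% fell with Wy, and 19.3% rose and 17.6% fell with fenofibrate. The poly(A)-binding protein gene Pabpc1 averaged 141 ± 6.01 CPM in WT Wy livers and 96.7 ± 3.13 CPM in WT control livers (SD, n = 3 each), with 0.55 ± 0.07 (edgeR adjusted p = 8.4e-06). Tpt1 rose by 0.55 and the elongation factor gene Eef1b2 by 0.59. Elongation factor Eef2 had -0.06 and was not called, and initiation factor Eif4b fell by 0.30.

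Some genes that build ribosomes rose in WT livers. Of 40 ribosome biogenesis loci 20 rose and 0 fell with Wy, with a median of 0.30, where 20.2% of all loci rose and 19.02% fell. With fenofibrate 17 of the 40 rose and 0 fell, with a median of 0.28, where 19.3% of all loci rose and 17.6% fell. In KO livers 0 of the 40 were called with either diet, near the shares of all loci there. Those shares were 0.133% higher and 0.105% lower with Wy, and 0.997% higher and 0.548% lower with fenofibrate. Nhp2, a protein of the box H/ACA particles that modify ribosomal RNA, averaged 16.4 ± 1.11 CPM in WT Wy livers and 7.62 ± 0.55 CPM in WT control livers, with 1.10 ± 0.14 (edgeR adjusted p = 4.2e-06); its locus overlaps Rmnd5b. Nop2, an RNA methyltransferase of the nucleolus, rose by 0.60, and Ncl (nucleolin) by 0.42. Of 27 RNA polymerase I and III loci 7 rose and 0 fell with Wy, a share of higher calls near the 20.2% of all loci, with a median of 0.07, among them the polymerase I subunits Polr1b (0.54) and Polr1e (0.87). Of 33 initiation factor loci 16 rose and 0 fell with Wy and 17 rose and 0 fell with fenofibrate, where 20.2% and 19.3% of all loci rose.

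Mitochondrial ribosomal proteins are encoded in the nucleus and serve a separate ribosome, and some of their mRNAs also rose in WT livers. Of 74 tested 28 rose and 1 fell with Wy, with a median of 0.25, where 20.2% of all loci rose, and 23 rose and 2 fell with fenofibrate, where 19.3% of all loci rose. In KO livers 0 were called with either diet, near the shares of all loci there. Those were 0.133% higher and 0.105% lower with Wy, and 0.997% higher and 0.548% lower with fenofibrate. The change with Wy in KO livers minus that in WT livers was called lower for 32 and higher for 0. Its median was -0.44, and 14.1% of all loci were called lower. For fenofibrate 12 were lower and 0 higher, with a median of -0.33, where 11.6% of all loci were called lower. Mrpl45 rose by 0.77 and Mrpl15 by 0.63 with Wy. Of 12 tested loci with a "-ps" symbol 5 rose with Wy, with a median of 0.78, where 20.2% of all loci rose.

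Among 25 loci of mTOR, Myc and TOP regulators 7 rose and 2 fell with Wy in WT livers, where 20.2% of all loci rose and 19.02% fell. Mtor averaged 42.7 ± 1.18 CPM in WT Wy livers and 15.8 ± 4.02 CPM in WT control livers, with 1.43 ± 0.16 (edgeR adjusted p = 1.0e-06), and 43.0 ± 6.89 CPM in WT fenofibrate livers; its locus contains Angptl7, listed at 0 in these libraries, so reads of either may be counted there. Myc averaged 3.01 ± 0.501 CPM in WT Wy livers and 1.30 ± 0.463 CPM in WT control livers, with 1.21 ± 0.29 (edgeR adjusted p = 0.003), and it also rose in KO Wy livers, by 1.60 ± 0.30 (edgeR adjusted p = 0.033). A link between Myc and the ribosomal protein genes was not tested. The Myc antagonists Mxd4 and Mxi1 fell by 0.52 and 0.64 in WT Wy livers. Of 13 quality control loci 3 rose with Wy and 4 with fenofibrate in WT livers and 0 fell, where 20.2% and 19.3% of all loci rose, among them Usp10 (0.88), Rnf10 (0.65) and G3bp1 (0.53), which act on ubiquitin marks of small subunit proteins or bind Usp10. Of 10 snoRNA host genes, whose introns carry the guide RNAs of ribosomal RNA modification, 0 rose and 3 fell with Wy in WT livers. Of all loci 19.02% fell there.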

How the data were processed

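The authors deposited 1 table per library with counts of reads per locus. The tools named, per the submitters' processing notes, are bcl2fastq 2.17, Trimmomatic 0.30, TopHat2 2.0.8 and Picard 1.84, on the mm10 build, and per the labels' protocols libraries were TruSeq Stranded mRNA. Which tool counted reads, with or without strand, and how it treated reads that fit several places is not given in the sources used here. Of 52463 loci in the tables, 31099 have a gene identifier. Another 12 blank or total lines and 5 read columns were not used.

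Counts were fitted with edgeR 4.0.16 (R 4.3.3; quasi-likelihood test, TMM scaling, filterByExpr over the 6 groups, 12 residual degrees of freedom, common biological coefficient of variation 0.140), with Benjamini-Hochberg adjustment over the 14241 loci tested and a threshold of 0.05. DESeq2 1.42.0, other scalings, filters, locus sums and leaving out each library were alternatives. Intervals are 95%. Depth was 68858479 to 150695447 counts per library; the limit set by a count of 0 covers counting error only. Identity of coding sequences came from alignments with Biopython 1.88. The steps were tested on simulated data.

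Members, lists and motifs were chosen with earlier results of these data known. Named members were, in each comparison, those called with the smallest adjusted p, up to 10 in a direction, the highest and lowest by level, and a set of stalk, paralog and other well-known genes; Rpl29 with its copy was chosen after its values were seen. Replicate numbers in the labels were checked as pairs: of 15 pairs of groups, only KO fenofibrate with KO control had every same-numbered correlation above 0.1 (0.115, 0.182 and 0.173), and with the numbers as a block that comparison had 0 calls as well. The highest single correlation was in WT fenofibrate with WT control, at 0.398 for number 1, with 0.317 and 0.066 for numbers 2 and 3. Calls of that comparison with the block are given below. Some genes of these lists are not reported here by name.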

Additional observations from a re-analysis of the deposited data

Results flagged for a closer look

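Responses to the diets differed between genotypes for the ribosomal protein genes listed here, by the edgeR test of the change in KO livers minus the change in WT livers; the values are log2 differences, and all are negative, that is, a lower response in KO livers. For Wy, 9 of the 10 with the smallest adjusted p were Rps26 at -1.00, Rplp2 at -0.95, Rpl23a at -0.86, Rpl29 at -0.85, Rpl36a at -0.80, Rplp1 at -0.73, the Rpl3 copy Rpl3-ps1 at -0.68, Rpl3 at -0.67 and Rpl4 at -0.52. For fenofibrate 9 of the 10 were Rplp2 at -0.62, Rpl3-ps1 at -0.59, Rpl3 at -0.58, Rps26 at -0.58, Rpl23a at -0.51, Rpl14 at -0.46, Rpl36a at -0.45, Rpl29 at -0.43 and Rpl4 at -0.37. Reads of Rpl29 can fit its copy Gm13841 as well, so the values of Rpl29 may not be those of the gene alone.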

How the results depend on the processing

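Counts of called members depended most on scaling by library totals, on single libraries and on which groups were fitted. Scaled by library totals with no TMM, members called higher were 104 with Wy in WT (median 1.13), 104 with fenofibrate in WT (1.05) and 84 in KO against WT (0.51). Members called lower were then 98 with Wy in KO (-0.56), 104 and 103 for the genotype differences with Wy (-1.69) and fenofibrate (-1.08), and 96 for Wy against fenofibrate in KO (-0.54). The shares of all loci called with this scaling are not given here, so these counts alone do not set the members apart from other loci. Genes whose sign turned were Rpl10 (0.72), Rpl36al (0.68) and Rps27 (0.73) with Wy in WT, Rpl10 (0.68), Rpl36al (0.52), Rps27 (0.63) and Rps6 (0.79) with fenofibrate in WT, and Rpl36al (-0.67) and Rps27 (-0.67) for the fenofibrate genotype difference. With library totals the median of all loci was -0.33 with Wy in KO, 0.32 in KO against WT, -1.11 and -0.73 for the genotype differences and -0.39 for Wy against fenofibrate in KO. With copies and "-ps" loci added to genes, an alternative chosen after seeing the data, 6 members were higher in KO against WT. With only the compared groups fitted, 1 (Gm13841) was lower in KO against WT and 7 in the fenofibrate genotype difference. DESeq2 called 1 lower with Wy in KO. Shares without Mup were 1.67%, 1.98% and 1.94% in KO and 2.39%, 2.33% and 1.70% in WT (Wy, fenofibrate, control).

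With the numbers as a replicate block, calls were 47 with Wy and 24 with fenofibrate in WT, 1 lower (Rpl29) with Wy in KO, 9 in KO against WT, and 55 and 9 for the genotype differences; in 3 of 15 pairs of groups every library correlated best with its own number.

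Leaving out 1 library gave 24 to 65 members higher with Wy in WT (medians 0.24 to 0.39), 11 to 50 higher and 0 to 1 lower with fenofibrate in WT (0.15 to 0.36), 0 to 1 lower with Wy in KO (-0.27 to -0.15), 0 to 1 lower with fenofibrate in KO (-0.18 to 0.04), 2 to 14 higher and 0 to 1 lower in KO against WT (0.11 to 0.27), 38 to 74 and 4 to 42 lower for the genotype differences (-0.59 to -0.44 and -0.45 to -0.23), 0 for Wy against fenofibrate in WT (0.01 to 0.17) and 0 to 1 lower in KO (-0.23 to -0.03). The causes were not tested.

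Limits are the 3 libraries per group, the movement shared by these genes within a library, unknown handling of strand and of reads that fit both gene and copy, and bulk tissue. Depth was not limiting for the 81 tested gene loci.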

Other observations

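The snoRNA host gene Gas5, itself a TOP-motif transcript that encodes no protein, averaged 27.9 ± 0.94 CPM in KO control livers and 4.54 ± 0.48 CPM in WT control livers (SD, n = 3 each), with a log2 fold change of 2.62 ± 0.18 (edgeR adjusted p = 1.6e-08). With Wy its log2 fold change was 0.23 in KO livers and -0.13 in WT livers, neither of them called. The ribosomal protein genes had a median difference of 0.18 in the same comparison of genotypes.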
